A study of Mus musculus with 12 samples.

Results

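A set of 10 genes of the Nrf2, glutathione and thioredoxin systems was followed in oral tumours of mice. They were taken by symbol: Nfe2l2 and Keap1 as the regulators, Slc7a11, Gclc, Gclm and Gss for glutathione synthesis, and Gsr, Gpx2, Nqo1 and Txnrd1 for recycling and use. All 10 had a value, out of 23102 genes measured. The study set 6 tumours labelled KR, which expressed RAS, against 6 labelled KHR, which expressed RAS and a transgene written iHPV; a further label of the KHR tumours names HPV E6. All the mice were F1 animals of C57BL/6 and FVB parents, and all had been injected with tamoxifen into the peritoneum. The sources used here do not say what the letters stand for, which promoter drives each transgene, or the animals' age, sex and litter. Total RNA of each tumour was read on 1 Affymetrix Mouse Gene 2.0 ST array at the level of exons. Whether each tumour was from its own mouse is not in the labels, and the p-values reflect only how far these tumours vary.

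Nrf2, encoded by Nfe2l2, is a transcription factor that switches on antioxidant and detoxifying genes. Keap1 holds it in the cytoplasm and passes it to the proteasome until oxidants or electrophiles modify Keap1. Glutathione, the main thiol of the cell, is built from cystine that Slc7a11 brings in, by glutamate-cysteine ligase (the catalytic subunit Gclc with the modifier subunit Gclm) and then by glutathione synthetase (Gss). Oxidised glutathione is returned to the reduced form by glutathione reductase (Gsr), and thioredoxin by thioredoxin reductase (Txnrd1), both at the cost of NADPH. In stratified epithelia and in squamous cancers the pathway is known for protection against oxidants and drugs.

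A pair of synthesis genes and a recycling gene changed in opposite directions. Gclc and Gclm, both subunits of the enzyme that limits the rate of glutathione synthesis, fell in KHR tumours by 0.93 ± 0.14 and by 0.49 ± 0.10 on the log2 scale (SE; limma adjusted p = 0.00223 and 0.0144, n = 6 against 6). Gsr rose by 0.63 ± 0.12 (limma adjusted p = 0.00767). The other 7 genes, Nfe2l2 and Keap1 among them, did not pass the threshold of 0.05. A level here is a gene's log2 intensity, the median over its probesets, and a change is KHR minus KR. The p-values are those of limma, adjusted over all genes by the Benjamini-Hochberg method. Of the 10 genes 1 was called higher and 2 lower, where 2.71% of all genes were called higher and 1.03% lower (3.74% in all). The genes were picked with earlier results of these data known, so these shares are a description.

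Promoter sequences were matched by symbol for 8 of the 10 genes, all but Gclc and Gsr (RefSeq, build GRCm38.p6). The core of the antioxidant response element, the DNA motif that Nrf2 binds with a small Maf protein, was searched as TGACNNNGC on both strands from 250 bases before to 50 bases after each start. It was found in 3 of the 10 promoters of these 8 genes, and in 12.4% of the 32851 promoters of that table. Shown are the 250 bases before the start of Gclm, the called gene among the 8, and of Nfe2l2, the regulator itself, at chr3:122245307-122245556 (plus strand) and chr2:75704664-75704913 (minus strand). The capitals mark the motif, which lies on the opposite strand in Gclm, where it reads TGACGGTGC, and on the strand of the gene in Nfe2l2, where it reads TGACTCCGC.
Gclm: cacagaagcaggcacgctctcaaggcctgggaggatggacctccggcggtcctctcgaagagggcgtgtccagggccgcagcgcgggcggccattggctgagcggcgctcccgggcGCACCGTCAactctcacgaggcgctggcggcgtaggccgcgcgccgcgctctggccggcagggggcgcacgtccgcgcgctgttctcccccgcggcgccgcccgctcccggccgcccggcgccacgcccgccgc
Nfe2l2: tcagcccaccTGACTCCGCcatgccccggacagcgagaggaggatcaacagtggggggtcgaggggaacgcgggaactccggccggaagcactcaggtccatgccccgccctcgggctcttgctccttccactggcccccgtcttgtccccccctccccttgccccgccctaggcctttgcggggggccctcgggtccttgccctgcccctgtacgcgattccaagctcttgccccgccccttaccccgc
The third match, TGACAAAGC, lay before 1 of the 3 starts of Txnrd1. These windows of Keap1, Slc7a11, Gss, Gpx2 and Nqo1 held no match. A match is a string of letters and not a site shown to be bound.

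Neither regulator passed the threshold. Nfe2l2 was bright in every tumour, above 99.2% of genes by its mean over the arrays. It stood at 11.74, 11.93 and 12.07 (lowest, median and highest) in KR tumours and at 11.49, 11.59 and 11.82 in KHR tumours. All 6 KHR tumours were below the KR median, yet the groups overlapped, since KHR 5 (11.82) was above KR 4 (11.81) and KR 5 (11.74). The change was -0.28 ± 0.09 (SE; 95% interval -0.47 to -0.10; limma adjusted p = 0.0940), which did not pass. Keap1 ranged from 5.87 to 6.89 in KR and from 5.81 to 6.92 in KHR tumours. Its groups lay over each other, with a change of 0.14 ± 0.20 (95% interval -0.29 to 0.58; limma adjusted p = 0.808), and the interval leaves room for a shift in either direction. With the mean of its probesets the change of Keap1 was 0.01.

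Each gene of glutathione synthesis had a lower mean in KHR tumours, and 2 of the 4 fell past the threshold. Gclc stood at 9.76, 10.06 and 10.43 (lowest, median and highest) in KR tumours and at 8.73, 9.23 and 9.40 in KHR tumours. All KHR tumours were below all KR tumours, which held for 0.84% of all genes, and KHR 4 was lowest. The mean fell by 47.7% on the linear scale of intensity, and the 95% interval of the log2 change was -1.24 to -0.63. Gclm stood at 10.85, 11.25 and 11.40 in KR tumours and at 10.64, 10.70 and 10.85 in KHR tumours. Its KHR tumours were close together (SD 0.08 against 0.21 in KR) and the groups touched only at KR 4 and KHR 2, both at 10.85. Its mean fell by 28.8% on the linear scale (95% interval of the log2 change -0.70 to -0.28). With the mean of its probesets in place of the median, the log2 change of Gclm was -0.31 (limma adjusted p = 0.0247). Within an array, Gclc minus Gclm averaged -1.09 ± 0.29 in KR tumours and -1.54 ± 0.21 in the KHR group (SD over 6 tumours each). Gclc thus lay below Gclm in both groups and farther below it in KHR tumours, the signed difference changing by -0.44 ± 0.15 (SE, a description with no test).

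Slc7a11, the cystine carrier, was also bright, at 11.17, 11.58 and 11.87 in KR and 10.73, 11.21 and 11.51 in KHR tumours. Each KHR tumour was below the KR median, but 3 KR tumours (KR 1, KR 2 and KR 3) lay within the KHR range. The change of -0.41 ± 0.17 did not pass (95% interval -0.77 to -0.05; limma adjusted p = 0.230). Gss, which adds glycine in the last step, stood at 6.62, 6.84 and 7.44 in KR and 6.08, 6.84 and 7.01 in KHR tumours, with equal medians. KR 6 stood above every other tumour and KHR 4 below. Its change was -0.18 ± 0.17 (95% interval -0.56 to 0.19, limma adjusted p = 0.690). It ran from -0.27 to -0.05 over all 22 refits. The changes nearest to none were -0.07 without KR 6, -0.06 without KHR 4 and -0.05 with the muscle covariate, and the largest was with quantile normalization.

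**Figure D1:**
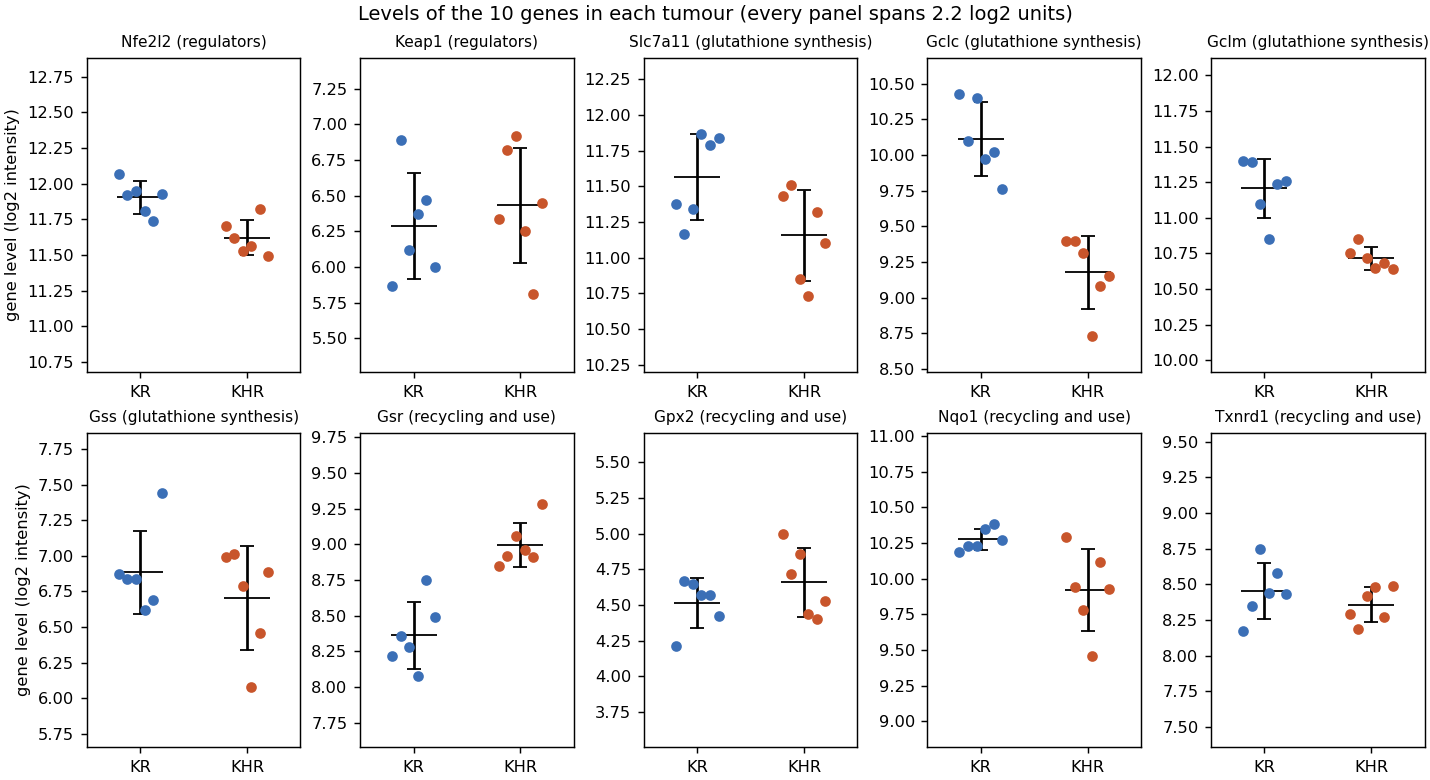
Level of each of the 10 genes (log2 intensity, vertical axis) in the 6 KR and 6 KHR tumours; points are tumours in order of replicate number, the bar is the mean and the whisker the SD, and every panel spans the same distance. Gclc shows no overlap and KHR lower (9.18 against 10.11), Gsr no overlap and KHR higher (medians 8.94 against 8.32), and Keap1 and Gpx2 show overlapping groups.

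Among the genes of recycling and use, Gsr alone passed. It stood at 8.08, 8.32 and 8.75 in KR tumours and at 8.85, 8.94 and 9.28 in KHR tumours. Every KHR tumour was above every KR tumour, as was so for 1.83% of all genes (the groups were apart in either direction for 2.67%), with KR 5 and KHR 1 nearest to each other. The mean was higher by 55.2% on the linear scale (95% interval of the log2 change 0.38 to 0.88). Nqo1, a quinone reductase widely used as a read-out of Nrf2, stood at 10.19, 10.25 and 10.38 in KR and at 9.46, 9.94 and 10.29 in KHR tumours. The KR tumours were nearly alike (SD 0.07) and the KHR tumours spread out (SD 0.29), with KHR 1 within the KR range and the other 5 below all KR tumours. The change of -0.35 ± 0.12 did not pass (95% interval -0.61 to -0.10; limma adjusted p = 0.140). It passed without KHR 1, at -0.43 (limma adjusted p = 0.0477), and with the mean of its probesets in place of the median, also at -0.43 (limma adjusted p = 0.0353); over all alternatives its adjusted p ran from 0.0353 to 0.258.

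Txnrd1, the cytosolic thioredoxin reductase, stood at 8.17, 8.44 and 8.75 in KR and 8.19, 8.36 and 8.49 in KHR tumours, with all KHR tumours inside the KR range. The change was -0.10 ± 0.10 (95% interval -0.32 to 0.12; limma adjusted p = 0.730). Gpx2, the glutathione peroxidase of digestive epithelium, was read by 1 probeset. It lay between 4.21 and 5.00 on all arrays, around the median level of all genes (4.98) or below it. No detection call was used, so whether it was above background cannot be said, and the change of 0.14 ± 0.12 (limma adjusted p = 0.646) bears on its level only as far as that probeset does.

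The groups overlapped for neither Gclc nor Gsr, so the distance between the 2 genes within an array had to differ as well. It restates those 2 group differences and is no further evidence for them. Within an array Gclc lay above Gsr by 1.75 ± 0.41 in KR tumours (SD, n = 6; range 1.27 to 2.21) and by 0.18 ± 0.31 in KHR tumours (range -0.23 to 0.55). The distance dropped by 1.57 ± 0.21 (SE, a description with no test). A distance between genes rests on their probes too, so it says that they changed unequally and not which transcript was more abundant.

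**Figure D2:**
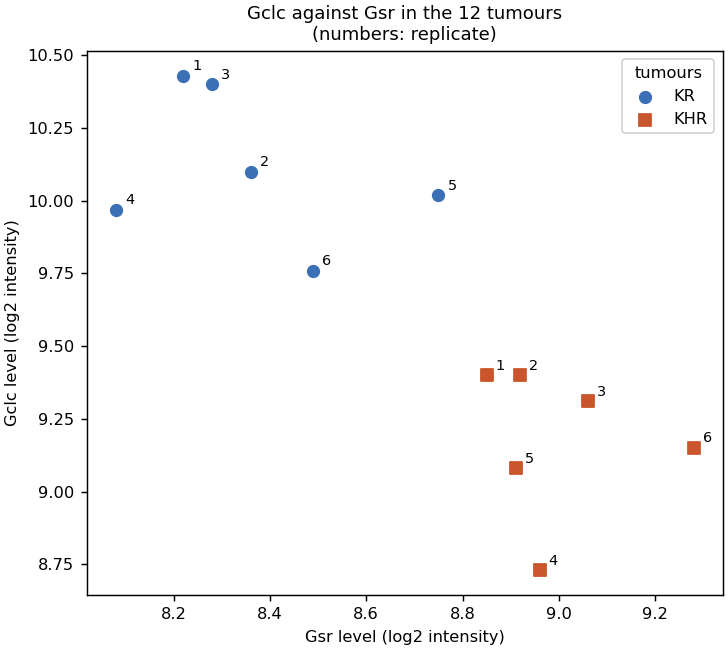
Level of Gclc (vertical axis) against that of Gsr (horizontal axis) in the 12 tumours, both in log2 intensity, circles for KR and squares for KHR, numbered by replicate. The KR tumours lie at high Gclc and low Gsr (medians 10.06 and 8.32). The KHR tumours lie at low Gclc and high Gsr (medians 9.23 and 8.94).

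The probesets of a gene, each read from a short stretch of its exons, did not all move alike. Over all probesets with 1 gene symbol, 1.02% of 233753 passed when each was tested alone. All 18 probesets of Gclc were lower in KHR tumours, by -1.07 to -0.36, and 8 passed. For Gclm 10 of 12 were lower; the 2 that were not had KR levels of 5.15 and 4.40, far below the rest, and none passed (smallest limma adjusted p = 0.0505). All 7 probesets of Nqo1 were lower, by -0.57 to -0.19, and none passed. For Slc7a11 15 of 16 were lower (-0.71 to 0.12) with none past the threshold.

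Gsr was less even. Of its 15 probesets 14 were higher and 1 passed. The 6 with the highest probeset numbers were higher by 0.53 to 0.97 and the 5 with the lowest numbers by 0.04 to 0.37. Those numbered between them were mixed, from -0.13 to 0.78. The contrast of high and low numbers was noticed in the values and not tested, and where in the gene these probesets lie is not analysed here. The median over the 15 changes was 0.37, below the 0.63 of the gene value, and the mean of probesets gave 0.49 (limma adjusted p = 0.00503), so the size of the rise depends on the summary. Nfe2l2 had 1 probeset that stood apart: its level went from 8.63 to 7.68, a change of -0.95 ± 0.21 (limma adjusted p = 0.0479 over all probesets), while the other 7 changed by -0.44 to 0.16. Its brightest probesets, above 12, changed by -0.31 to 0.16. Gss had probesets from -1.19 to 0.55 with none past the threshold, and Keap1 from -0.40 to 0.46.

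**Figure D3:**
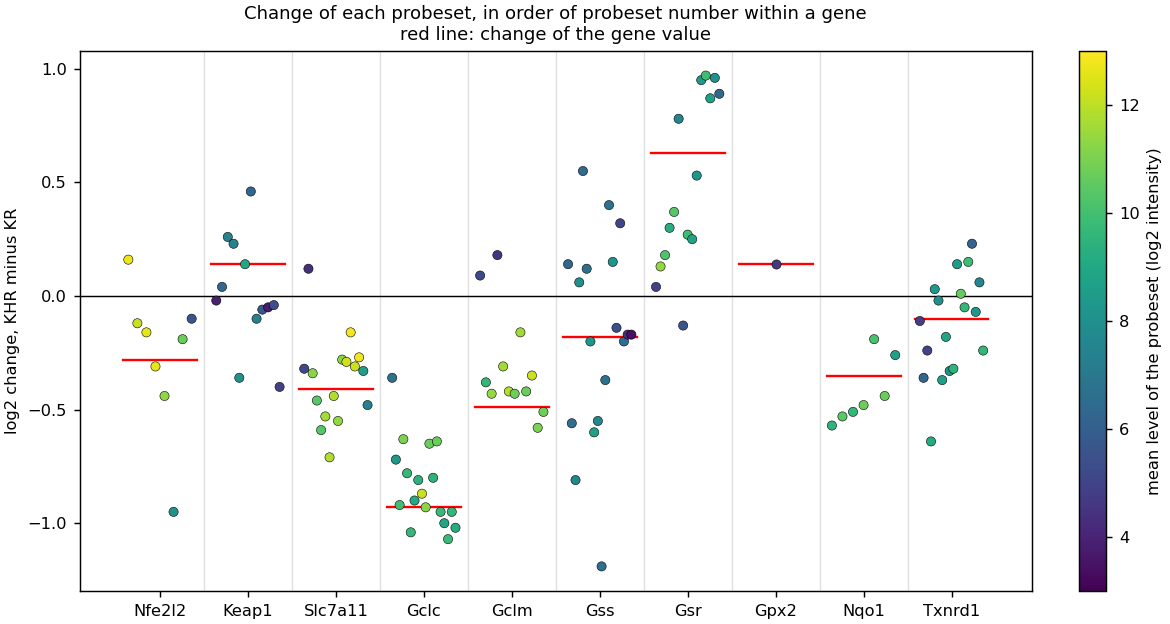
Change of every probeset of the 10 genes (log2, KHR minus KR, vertical axis), in order of probeset number within a gene and coloured by its mean level; the red line is the change of the gene value. Gclc lies below 0 throughout, from -1.07 to -0.36, whereas Gsr runs from -0.13 to 0.97. The highest values of Gsr are among its last probesets, with 0.78 at an earlier one.

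Variation among tumours of the same group gave no relation past the threshold. Nqo1 was set against each other member across the 6 tumours of a group, 18 relations in all, and none passed after adjustment by either measure (exact permutation test, two-sided; lowest adjusted p = 0.1 for Pearson's r and 0.394 for Spearman's rho). The closest was Nfe2l2 in KR tumours, where Nqo1 was lower as Nfe2l2 was higher (r = -0.95, exact permutation p = 0.00556; rho = -0.83, exact permutation p = 0.0583; r = -0.79 without the 2 tumours farthest from the median of Nqo1). In KHR tumours the same pair gave r = 0.63 (exact permutation p = 0.183; rho = 0.71, exact permutation p = 0.136; r = 0.84 without the 2). Slc7a11 leaned the same way as Nqo1 in both groups (r = 0.79 in KR and 0.84 in KHR, exact permutation p = 0.0736 and 0.0278, adjusted p = 0.439 and 0.250; rho = 0.66 and 0.83, exact permutation p = 0.175 and 0.0583; r = 0.68 and 0.67 without the 2). Nqo1 in KR tumours spanned only 10.19 to 10.38, so its order there rests on small differences.

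Across all genes, and after subtracting each group's mean, the 5 genes whose levels followed Nqo1 most closely over the 12 tumours were Fetub and Il11 (r = 0.88 each), Chit1 (0.87), Prelid3b (0.86) and Timm9 (0.85), none of them of the lists used here. Slc7a11 came at rank 103 of 23101 genes (0.72) and Nfe2l2 at rank 4031 (0.27). Nqo1 varied more among KHR tumours (SD 0.29) than among KR tumours (SD 0.07), so these r weigh the KHR tumours more heavily. Il11 was dim, with a mean level of 4.41. For Gpx2 they were Eef1e1 (0.92), Zscan4e and Gdf3 (0.88 each), and Mir1983 and Crhr1 (0.87 each). Crhr1, Gdf3 and Zscan4e had mean levels of 3.87, 4.34 and 5.13, near or below the median level of all genes (4.98). Eef1e1 and Mir1983 were brighter, at 10.29 and 7.35. Gpx2 was itself as dim, so these r may rest on small differences near background. With 12 points and so many genes the top of such an order can be high by itself, and it is given as a description.

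Around these 10, the other genes of the pathway were followed in 7 lists, with 97 of 99 genes measured. Of the 97, 2 rose and 4 fell, and the median change was -0.05 against 0.00 for all genes. That is 6.19% called, beside 3.74% of all genes (2.71% higher and 1.03% lower). In 4 of the 97 every KHR tumour was below every KR tumour, and in 0 above, beside 0.84% and 1.83% of all genes.

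Among 11 partners and regulators of Nrf2, Mafg fell and the others did not pass (list median 0.07). Mafg encodes a small Maf protein that pairs with Nrf2 on DNA. It stood at 6.46, 6.60 and 6.81 in KR and 5.30, 6.07 and 6.23 in KHR tumours, with no overlap. The change was -0.66 ± 0.14 (limma adjusted p = 0.0222), but only -0.24 with the mean over its 6 probesets and -0.16 with median polish (limma adjusted p = 0.122 and 0.380), and it was lost without KR 2 or KR 6 (0.0567 and 0.0536).

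Of 20 other Nrf2 target genes, 2 fell and none rose (median -0.18). Aldh3a1, an aldehyde dehydrogenase of surface epithelia, had the largest change of all 97. It stood at 10.39, 10.61 and 11.23 in KR and 8.72, 9.35 and 9.72 in KHR tumours, with every KHR tumour below every KR tumour. It fell by 1.36 ± 0.18 (limma adjusted p = 0.00113). Ptgr1, a reductase of prostaglandins and lipid aldehydes, fell by 0.35 ± 0.09 (limma adjusted p = 0.0423), a call that ended when any of 11 arrays was left out (up to 0.0948) and with the mean or median polish of probesets (-0.17 and -0.21) or with the Xist or muscle covariate (limma adjusted p = 0.0812 and 0.0535). Several classical targets did not pass: Hmox1, heme oxygenase, stood at 8.89 and 8.91 (change 0.01 ± 0.22), and Srxn1, sulfiredoxin, differed by -0.16 ± 0.14. These 2 were picked after their values were seen.

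Of 24 glutathione transferases, 1 rose and 1 fell (median -0.12). Gsto1, the omega class enzyme, was 13.14 ± 0.11 in KR and 12.75 ± 0.11 in KHR tumours (SD over 6 tumours) with no overlap, and fell by 0.38 ± 0.08 (limma adjusted p = 0.0199; 0.0517 with the mean of probesets). Gstk1, the mitochondrial and peroxisomal kappa enzyme, rose by 0.49 ± 0.11 (limma adjusted p = 0.0263), with KHR 1 (8.69) inside the KR range; leaving out any of 7 single arrays ended its call (up to 0.0663), as did the Xist or muscle covariate (0.0611 and 0.0656). The mu class genes Gstm1, Gstm2 and Gstm4 differed by -0.70 ± 0.23, -0.69 ± 0.20 and -0.73 ± 0.21 (limma adjusted p = 0.123, 0.0728 and 0.0746). They were singled out after their values were seen, and as related genes of 1 class they may share signal. The rest of the class did not pass: Gstm5 and Gstm6 differed by -0.35 and -0.27, but Gstm3 and Gstm7 by 0.25 and 0.27. Gsta3, of the alpha class, had the largest fall of the 24, at -0.76 ± 0.21 (limma adjusted p = 0.0693). Among the refits with all 12 arrays, Gstm1 passed with the mean of probesets, median polish and the replicate block. Gstm2 passed with the mean, median polish, quantile normalization and the filter on dim genes, and Gstm4 with these except median polish. Gsta3 passed with each of the refits just named. Of the 97 genes, 5 were called higher and 6 lower with the mean of probesets, and 6 and 7 with median polish. With quantile normalization the counts were 2 and 9, and with the filter 2 and 7. Calls over all genes shifted too. Of all 23102 genes, 973 were called higher and 472 lower with the mean, and 801 and 425 with median polish. Quantile normalization called 480 higher and 365 lower. The filter called 710 and 297 among the genes it kept, a smaller set than the 23102.

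Of 14 genes of cysteine supply and glutathione turnover, 1 rose and none fell (median -0.04). Cth, which makes cysteine from cystathionine, stood at 6.43, 6.70 and 7.17 in KR and 7.04, 7.52 and 8.24 in KHR tumours. Only KHR 4 and KR 4 crossed. It rose by 0.82 ± 0.18 (limma adjusted p = 0.0202; 0.0507 without KR 2). The rise was smaller with the mean of probesets (0.50) and with median polish (0.42), and both passed.

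No gene passed among 7 other glutathione peroxidases (1 at an unadjusted p under 0.05), 17 genes of thioredoxin, peroxiredoxin and glutaredoxin (6) or 4 superoxide dismutases and catalase (3), by limma, where 15.9% of all genes had such a p. Gpx4, which protects membrane lipids, was 6.82 ± 0.55 in KR and 7.58 ± 0.49 in KHR tumours (SD over 6 tumours, limma adjusted p = 0.144). Gpx5 was dim, with means of 3.89 in KR and 4.05 in KHR tumours, below the median level of all genes (4.98). It differed by 0.16 ± 0.11 (SE). With the mean of probesets these differences were 0.26 for Gpx4 and 0.05 for Gpx5, and with median polish 0.27 and 0.06. Txnrd3 differed by 0.62 ± 0.19 (limma adjusted p = 0.0969; 0.0229 without KR 4) and Prdx6, the 1-cysteine peroxiredoxin, by -0.36 ± 0.12 (limma adjusted p = 0.117), and both passed with the mean of probesets (limma adjusted p = 0.0369 and 0.00540). Sod2, the mitochondrial superoxide dismutase, and the secreted Sod3 differed by 0.35 ± 0.11 and 0.34 ± 0.14 (0.21 for Sod3 with the mean of probesets). Cat, catalase, went the other way, at -0.42 ± 0.19 (limma adjusted p = 0.300), and Sod1 differed by 0.02 ± 0.13.

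**Figure D4:**
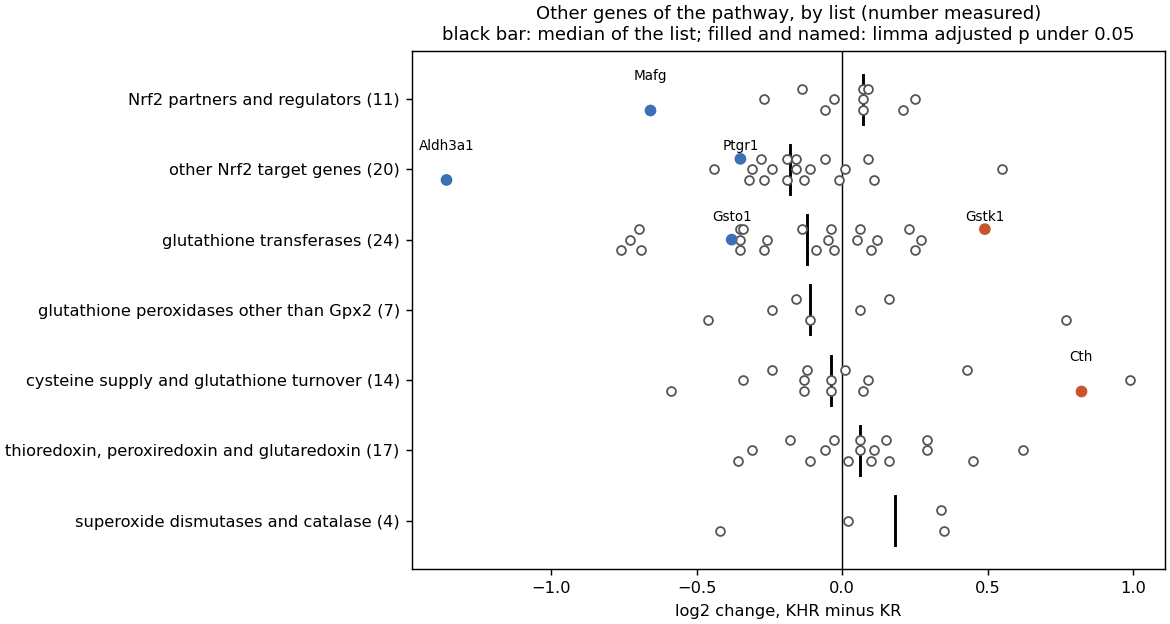
Change (log2, KHR minus KR, horizontal axis) of 97 other genes of the pathway in 7 lists; each point is a gene, the black bar is the median of a list, and filled points passed the threshold. Medians lie between -0.18 and 0.18, and Aldh3a1 at -1.36 stands far to the left.

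**Figure D5:**
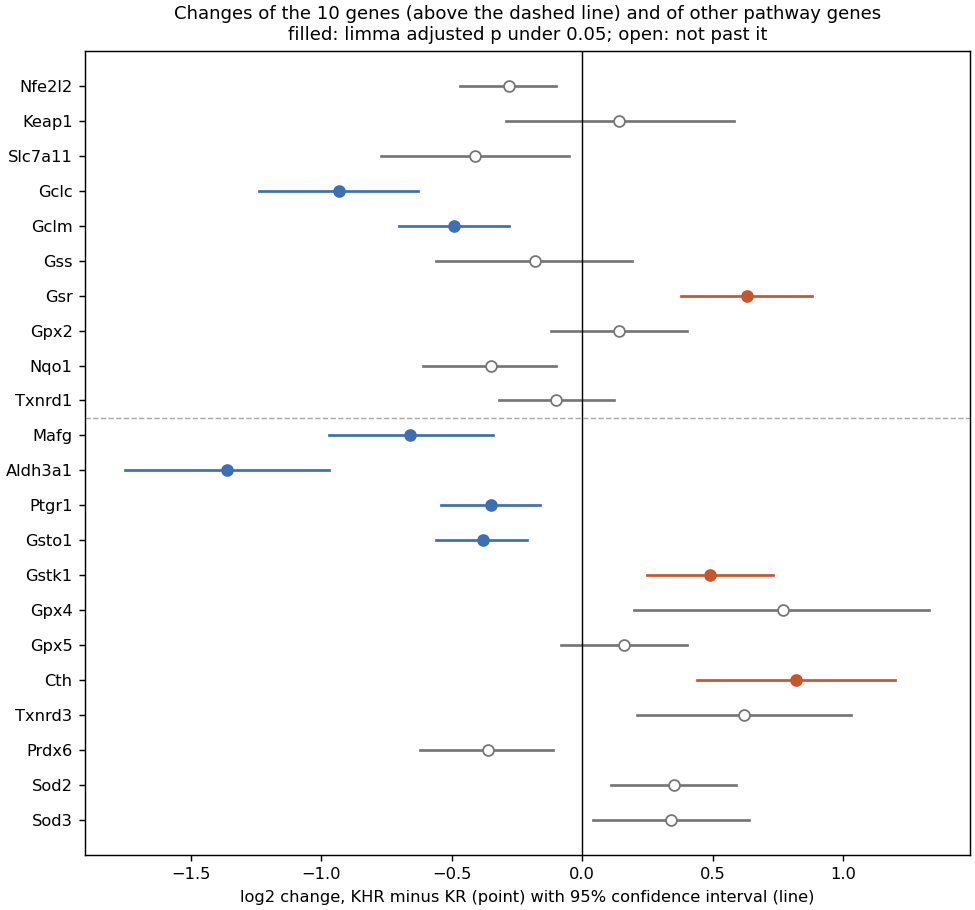
Change (log2, KHR minus KR, horizontal axis) with its 95% confidence interval for the 10 genes and 12 other genes of the pathway, filled where limma's adjusted p was under 0.05. Gclc (-0.93), Gclm (-0.49) and Gsr (0.63) are filled among the 10, and the interval of Gsr lies wholly above 0.

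These are whole tumours, in which more cells of a type and more RNA per cell cannot be told apart. Bright squamous epithelial genes matched the label of the tissue: Krt5 stood at 13.19 and 13.17 and Krt14 at 12.98 and 13.08 (KR and KHR means). Krt15, of the same list, was dimmer, at 6.23 and 6.75. The mean of 9 squamous genes ran from 11.11 to 11.55 in KR and from 10.78 to 11.43 in KHR tumours. Of the 9, 6 had lower and 3 higher means in KHR tumours. Only Krt13 passed, with a change of -1.26 ± 0.22 (limma adjusted p = 0.00571). Krt4 had the largest change of the 9, -1.74 ± 0.72, but did not pass (limma adjusted p = 0.240). Of 7 neutrophil genes Cxcr2 rose and the other 6, also with higher means in KHR tumours, did not pass; the mean of the 7 ran from 6.49 to 7.42 in KR and from 7.21 to 7.77 in KHR tumours, with overlap. The 8 macrophage genes were all higher on average with none past the threshold (means 5.31 to 6.04 and 5.71 to 6.43). Of 8 fibroblast genes Col1a2 fell, while 4 of the others had lower and 3 higher means in KHR tumours without passing (list mean 8.33 to 9.83 in KR and 8.53 to 9.41 in KHR tumours). None of 6 endothelial and 7 salivary gland genes passed (0 also at an unadjusted p under 0.05 by limma). Skeletal muscle genes spread widely (5.50 to 6.77 and 5.47 to 7.86, 12 genes). Of the 12, 10 had higher and 2 lower means in KHR tumours, and none passed. T and NK cell genes were near the bottom of the scale in both groups (3.98 to 4.39 and 3.91 to 4.38, 7 genes). The part of these cells, muscle included, in the changes of Gclc, Gclm and Gsr was not tested. With the muscle mean as a covariate all 3 calls remained, with changes of -0.85, -0.46 and 0.63. Xist was high in 2 of 6 KR and 4 of 6 KHR tumours, so sex was uneven, and with its level as a covariate Gclc, Gclm and Gsr changed by -0.82, -0.44 and 0.63 (limma adjusted p = 0.00308, 0.0359 and 0.0204).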

How the data were processed

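The authors deposited a table of log2 intensities with 269751 probesets and 12 arrays. The submitters' processing notes name Partek. The sources used here give no background correction, normalization or genome build, and log base 2 was taken from the values' range. Array medians lay between 5.62 and 5.75, and no 2 arrays were copies (highest correlation 0.97). The platform table named 233753 probesets with 1 symbol, 5106 with several (left out) and 30892 with none; 2247 older symbols were updated through RefSeq synonyms (GRCm38.p6), none of a member. A gene's value was the median of its probesets, with no filter on dim genes.

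KHR was compared with KR in limma 3.58.1 (lmFit, eBayes; R 4.3.3), two-sided, over all 12 arrays and 23102 genes. The number of arrays limits the precision. Other tools were Python 3.11.15, scipy 1.17.1 and matplotlib 3.10.9. The members, lists, tests and alternatives were chosen with earlier results of these data known. Named were all members, of each list those that passed (at most 6) or else the 2 with the smallest p, and the 5 genes most like Nqo1 and Gpx2; others are said to be picked by their values. Alternatives were other probeset summaries and scalings, a filter on dim genes, other moderation, array weights, the replicate block, covariates (Xist, muscle), a test per probeset, an exact permutation test and leaving out each array.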

Additional observations from a re-analysis of the deposited data

Results flagged for a closer look

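A tumour stood far from the other 5 of its group in 3 of 44 groups examined (22 genes in each of the KR and KHR tumours), where chance alone gives about 1 in 20. Gss was 7.44 in KR 6, the highest, with the next KR tumour at 6.87, and without KR 6 the change of Gss was -0.07 in place of -0.18. Mafg was 5.30 in KHR 1, the lowest, with the next at 5.91. Gstk1 was 8.69 in KHR 1, also the lowest, with the next at 9.06. Without KHR 1 the calls of Mafg and Gstk1 remained, with Mafg at -0.52 and Gstk1 at 0.57.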

How the results depend on the processing

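Gclc, Gclm and Gsr kept their direction and their call in all 22 refits of limma, with changes of -1.01 to -0.82, -0.56 to -0.31 and 0.43 to 0.71, and adjusted p up to 0.00692, 0.0382 and 0.0404. The number of members called was 3 throughout, except 4, with Nqo1 added, for the mean of probesets and without KHR 1. Leaving out each array gave 3 to 4 members, 3 to 8 of the 97 list genes (3 without KR 2 or KR 6; 6 with all) and 523 to 1085 of all genes (863 with all; 531 without KR 2 and 523 without KHR 4). The list genes called were 11 with the mean of probesets, 13 with median polish and 11 with quantile normalization. All genes called were 1445, 1226 and 845 with these 3, and 555 with Xist as a covariate. The cause was not tested. With quantile normalization 56.8% of all calls were higher in KHR, against 72.4%. The exact permutation test called 0 of all genes after adjustment, where limma called 863, and 3436 had an unadjusted permutation p under 0.05. The smallest permutation p that 6 against 6 arrays can give is 0.00216. Gclc and Gsr had that p (exact permutation adjusted p = 0.081 each), and Gclm had 0.00433 (exact permutation adjusted p = 0.108). When each probeset was tested alone, no probeset of Gclm passed, and the median change of Keap1 turned to -0.03 from 0.14. Whether replicate numbers pair the tumours is not in the labels and was not tested. Deviations of same-numbered tumours correlated at 0.00 to 0.23, over 0.1 for 2 of 6 pairs, and 2 of 6 KR tumours were closest to their own number. With the replicate number as a block, 925 of all genes, 3 members (Gclc, Gclm and Gsr) and 5 list genes were called; Ptgr1, Gstk1 and Cth were not among the 5. No detection calls were used, so changes of genes near the median level, such as Gpx2, are not exact.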
